A study of Rattus norvegicus with 24 samples.

Results

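The change in liver gene expression between 1 and 4 weeks on a diet with 5% protein was measured by comparing the 6 rats fed this diet for 4 weeks with the 6 fed it for 1 week. These 12 samples were taken by their titles from the 24 of the series. The other 12 came from rats fed 20% protein for the same times, 6 each, and gave the change over the same interval on a diet with more protein. All animals were male Wistar rats, each gave RNA of the whole liver to 1 array, and the labels name no difference between them other than the protein share of the food and how long it was given. A second code in the descriptions holds 4 and 18 where the titles hold 5 and 20, and the design text names only 4 weeks, so the percentages and the shorter time carry some doubt. The labels give no age, and time on the diet and the age of the animals cannot be told apart within 1 diet. Different animals were used at each time, so nothing here follows 1 rat.

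When food supplies too little protein, uncharged transfer RNAs activate the kinase GCN2, which slows translation and lets the transcription factor ATF4 accumulate. ATF4 raises genes for amino acid synthesis, uptake and stress, Trib3, Asns and Fgf21 among them, while the liver normally lowers the enzymes that break amino acids down. The growth of a young male rat to maturity brings the pulsed growth hormone pattern that sets male liver genes, such as Hsd3b5, apart from female ones, such as Cyp2c12. Whether the weeks studied fell in that period is not given by the labels.

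Array medians over the series lay between 42.4 and 45.5 in intensity, and 17245 genes entered the fit. Of the variance among the 12 animals on 5% protein, 35.7% lay on the first principal component. On it, 5 of the 6 animals at 4 weeks lay above 0, all 6 at 1 week lay below 0, and animal 26 at 4 weeks lay at -1.01. Animal 26 correlated across genes with its own group at 0.9896 and with the 1 week group at 0.9900 on average, so it stood between the groups. Taken in order of animal number, the series was cut into 4 runs wherever the feeding time changed. The runs were animals 22 to 32, 49 to 54, 59 to 73 and 74 to 79. A run holds a single feeding time by this definition, so no change over time could be taken within a run. The labels name no such batch. On 5% protein at 1 week 3 animals came from the second run and 3 from the fourth, and at 4 weeks 5 came from the first and only animal 59 from the third. Of the rows of wells, only C (animal 32 against 49 and 50) and E (animal 59 against 54) hold both times on 5% protein.

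Between 1 and 4 weeks on 5% protein, 716 genes rose and 713 fell, 4.15% and 4.13% of those tested (limma, Benjamini-Hochberg adjusted p below 0.05, called for short). Counts of called list members further below are to be read beside these shares, since some lists lie close to them. Differences are log2 intensity at 4 weeks minus 1 week, ± the standard error of the fit, with n = 6 animals per group, so that 1 unit is a doubling. The median size of the called rises was 0.48 and of the called falls -0.48, and 73 rises and 65 falls reached 2-fold. In 259 of the called rises and 265 of the called falls, the 6 animals at 4 weeks did not overlap the 6 at 1 week; over all genes, 3.75% did not overlap. Of the 1429 called genes (8.29%), 1367 had the same sign within row C and within row E, which rest on the few animals just named. These animals also entered the calls, and over all genes 52.6% had the same sign in both rows as over the 12 animals. With array medians centred, the split was 921 rises to 599 falls, and the median of all genes moved from 0.014 to 0.036. The number of calls leaned on single animals: without animal 32, 403 rose and 386 fell, and without animal 26, 901 rose and 754 fell. It also leaned on the runs, with 248 rises and 279 falls without the second run and 791 and 716 without the fourth.

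Hsd3b5, a steroid-reducing 3-beta-hydroxysteroid dehydrogenase made by the male liver, had the largest called rise without overlap. It lay at 3.92 to 4.75 (median 4.20) at 1 week and at 8.79 to 10.28 (median 9.44) at 4 weeks, given as lowest to highest animal in log2 intensity. All 6 animals at 4 weeks were far above all 6 at 1 week, and the rise was 5.18 ± 0.56 (adjusted p = 7.24e-06). Cyp2c13, a male-type steroid hydroxylase, went from 6.75 to 10.50 (median 8.71) to 11.50 to 12.71 (median 12.31), a rise of 3.44 ± 0.75 (adjusted p = 0.00638). The groups were parted although the 1 week animals were widely spread. Mettl7b, a methyltransferase of the endoplasmic reticulum and lipid droplets, was the most even of these rises, from 8.78 to 9.85 (median 9.58) to 11.83 to 12.64 (median 12.22) and by 2.78 ± 0.21 (adjusted p = 1.78e-08). Nrg1, a growth factor that binds ErbB receptors, lay at 4.47 to 5.27 (median 4.96) and then at 6.42 to 8.28 (median 7.83), and rose by 2.77 ± 0.23 (adjusted p = 1.41e-07). Hdc, the enzyme that makes histamine, lay at 5.07 to 6.58 (median 6.37) at 1 week and 7.95 to 9.63 (median 8.85) at 4 weeks, a rise of 2.82 ± 0.36 (adjusted p = 7.98e-05). These genes were picked among rises without overlap, so the parting of their groups follows from that choice. The other 10 of the 15 largest rises without overlap ran from 1.52 to 3.24. They include the glucuronyltransferase Ugt2b at 3.24 ± 0.76 (not called with the well row as a fixed block, adjusted p = 0.155, or without the second or the fourth run), the teneurin Tenm2 at 2.48 ± 0.26, the transmembrane protein Sidt1 at 2.44 ± 0.27, the sodium-activated potassium channel Kcnt2 at 2.07 ± 0.22, the guanylate cyclase receptor Gucy2c at 2.04 ± 0.31, the ferritin receptor Scara5 at 1.62 ± 0.29 and the receptor Eda2r, a p53 target, at 1.52 ± 0.26.

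The largest called falls without overlap included genes of amino acid, sugar and fat handling, beside P450 enzymes and signalling genes. Aspg, an asparaginase that splits asparagine, lay at 8.47 to 9.04 (median 8.82) at 1 week and 4.99 to 7.74 (median 6.58) at 4 weeks, and fell by 2.34 ± 0.34 (adjusted p = 0.000332). The animals at 4 weeks were spread widely, and all lay below the 1 week group, as the choice of falls without overlap requires. Slc2a5, the fructose transporter, went from 8.77 to 10.08 (median 9.32) to 5.70 to 7.82 (median 7.35) and changed by -2.25 ± 0.37 (adjusted p = 0.000694). Thrsp, a thyroid hormone-responsive protein of fat synthesis, went from 12.29 to 12.87 (median 12.51) to 7.29 to 11.81 (median 11.38), a change of -1.87 ± 0.47 (adjusted p = 0.0152). Its lowest value belongs to animal 32, and without that animal the change was -1.19 (adjusted p = 0.000762). The call was lost without the second run (-1.70, adjusted p = 0.185), without the fourth (-2.04, adjusted p = 0.0596) and with only the groups compared (adjusted p = 0.0729). Aass, which starts lysine breakdown, moved from 9.89 to 10.46 (median 10.19) to 7.35 to 9.55 (median 8.88), by -1.64 ± 0.34 (adjusted p = 0.00475). The other 11 of the 15 largest falls without overlap ran from -2.05 to -1.26. Among them were the P450 enzymes Cyp17a1 at -2.05 ± 0.35, Cyp1a1 at -1.93 ± 0.30, Cyp3a23-3a1 at -1.61 ± 0.26 and Cyp2b1 at -1.56 ± 0.38, the clock-output factor Hlf at -1.52 ± 0.27, the Wnt deacylase Notum at -1.28 ± 0.24, the carotenoid oxygenase Bco2 at -1.27 ± 0.27, the signalling protein Bmp8b at -1.70 ± 0.41, the receptor Gfra1 at -1.49 ± 0.22 and the zinc transporter Slc39a5 at -1.29 ± 0.21.

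The text describes 109 of the called genes of the naming rule, and 50 of them were called in each of the 28 alternatives to this fit that tested them (27 for Kcnt2, too dim for 1), Hsd3b5, Mettl7b, Nrg1, Hdc, Aspg, Slc2a5 and Aass among them. With the well row as a fixed block, the call was lost for 19: Cdkn2b, Clec4f, Cps1, Csf1r, Cyp4a8, Cyp8b1, Fbp1, Gls2, Gstm1, Gstm4, Gzma, H19, Hacl1, Ifi44, Igfbp2, Nr1i2, Stat2, Ugt2b and Vldlr. With only the groups compared it was lost for 14, Hbb, Abca1, Apoc1, Apom, Arg1, Car3, Cps1, H19, Ifi44, Klf6, Nr1i2, Pnpla2, Thrsp and Trib3. Without the second run 46 lost the call: Abca1, Acadvl, Acot2, Apoc1, Apom, Arg1, Atf3, Atf4, Car3, Cdkn2b, Cdkn2c, Cps1, Cpt1b, Cyp2a1, Cyp4a8, Dio1, Ero1b, Etfb, F10, Gstm7, H19, Hacl1, Hbb, Ifi44, Igfbp2, Itih1, Klf6, Lrp1, Notum, Nr1i2, Nudt12, Orm1, Phyh, Pnpla2, Prodh2, Pxmp2, Pycr1, Rpl28, Rplp0, Serpinf2, Slc25a13, Slc27a5, Spink1, Thrsp, Trib3 and Ugt2b. Without the fourth 20 did: Adgre1, Bst2, Cdkn2b, Clec4f, Cps1, Csf1r, Cyp2b1, Cyp4a8, Cyp8b1, Gls2, Gzma, H19, Hbb, Ifi44, Igfbp2, Klf6, Pnpla2, Stat2, Thrsp and Ugt2b. Each time 3 animals remained at 1 week.

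**Figure D1:**
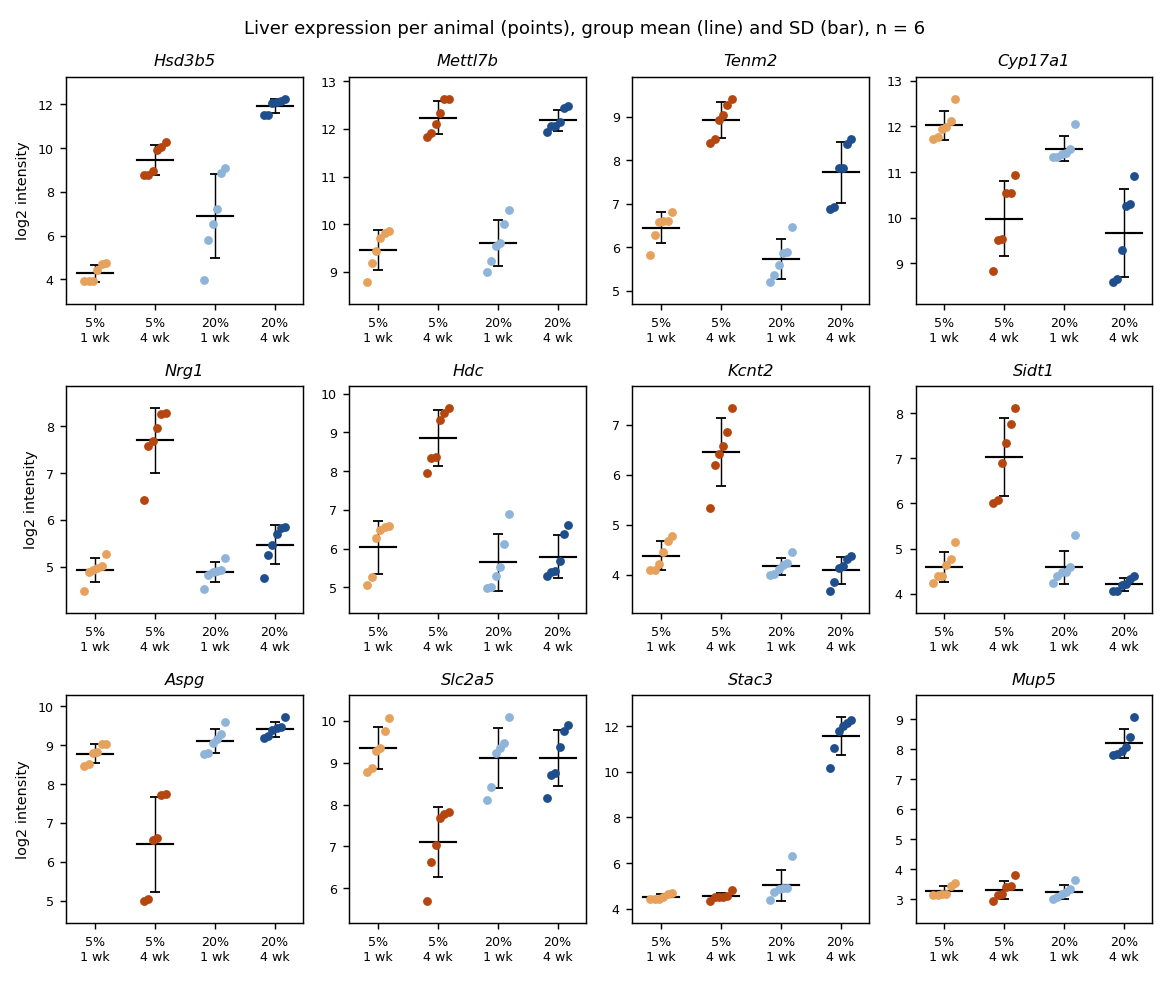
Log2 intensity (vertical axes) of 12 genes in every animal of the 4 groups (horizontal axes: protein share and weeks of feeding); points are animals, lines the means and bars the SD of 6. Hsd3b5, Mettl7b, Tenm2 and Cyp17a1 moved on both diets, Nrg1, Hdc, Kcnt2, Sidt1, Aspg and Slc2a5 were called on 5% protein and not on 20%, and Stac3 and Mup5 were called on 20% protein and not on 5%.

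The change over the same interval on 20% protein was smaller in number of calls and shared few of them. On 20% protein 176 genes rose and 259 fell, 1.02% and 1.5% of those tested, and 50 genes were called on both diets in the same direction, 3.5% of the calls on 5% protein and 11.5% of those on 20%. The difference between the diets in the change over time was itself called for 991 genes (5.75%), of which 611 changed more upward and 380 more downward on 5% protein (3.54% and 2.2%). With array medians centred, these were 476 and 460, and the calls on 20% protein were 341 rises and 174 falls. Of the 1429 genes called on 5% protein, 533 also had a called difference. This difference rests on all 4 groups: without the third run of animals it was called for 23 genes higher and 19 lower.

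Several genes, male-type enzymes among them, were called on both diets. Hsd3b5 rose by 5.02 ± 0.56 on 20% protein, and the difference between the diets was 0.16 ± 0.79 (adjusted p = 0.94). Mettl7b rose by 2.58 ± 0.21 on 20% protein and Tenm2 by 1.99 ± 0.26, beside 2.78 ± 0.21 and 2.48 ± 0.26 on 5%, and Cyp2a2, a male-type testosterone hydroxylase, rose by 2.34 ± 0.51 on 5% and 2.05 ± 0.51 on 20%. Cyp17a1, the steroid 17-hydroxylase, changed by -2.05 ± 0.35 on 5% and -1.84 ± 0.35 on 20%. In none of these 5 was the difference between the diets called, and for Tenm2 it was 0.48 ± 0.37. At 1 week on 20% protein, animal 53 lay low for Cyp2a2, at 7.08 against 10.24 to 10.79 in the other animals. It was also lowest for Hsd3b5, at 3.99 against 5.78 to 9.11. The rises of both genes on 20% protein include this animal. Slc39a5 fell on both diets, by 1.29 ± 0.21 on 5% protein and by 2.51 ± 0.21 on 20%, and this difference was called (adjusted p = 0.022).

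Nrg1 changed by 0.59 ± 0.23 on 20% protein, against its rise of 2.77 ± 0.23 on 5% (difference 2.18 ± 0.33, adjusted p = 0.000601). Sidt1 differed between the diets by 2.82 ± 0.38 (adjusted p = 0.00015), Kcnt2 by 2.15 ± 0.31 (adjusted p = 0.00029) and Hdc by 2.67 ± 0.51 (adjusted p = 0.00444). Aspg differed by -2.63 ± 0.49 (adjusted p = 0.00392) and Slc2a5 by -2.25 ± 0.52 (adjusted p = 0.0148). On 20% protein none of these 6 was called.

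The largest differences belonged to genes that rose on 20% protein and not on 5%. Stac3, an adaptor of muscle calcium channels, lay at 4.43 to 4.68 (median 4.49) at 1 week and 4.35 to 4.84 (median 4.51) at 4 weeks on 5% protein, while it rose by 6.54 ± 0.29 on 20% (difference -6.52 ± 0.40, adjusted p = 1.89e-10). All 12 animals on 5% protein lay close together near the low end of the scale. Mup5, a major urinary protein, lay at 3.14 to 3.53 (median 3.17) and 2.95 to 3.79 (median 3.27) on 5% protein and rose by 4.95 ± 0.17 on 20% (difference -4.91 ± 0.24, adjusted p = 2.09e-12). Dhrs7l1, a short-chain dehydrogenase, moved by 1.28 ± 0.53 on 5% protein (adjusted p = 0.15) and by 5.80 ± 0.53 on 20%, and the superoxide-producing oxidase Nox4 by -0.30 ± 0.33 and 3.20 ± 0.33. In the other direction, the acyl-CoA thioesterase Acot1 had the largest difference, 4.88 ± 0.96 (adjusted p = 0.00505). Next came the glutathione transferase Gsta3 at 3.64 ± 0.27, which changed by 0.39 ± 0.19 on 5% protein (adjusted p = 0.241) and fell by 3.25 ± 0.19 on 20%. Cyp2c12, the female-type P450, changed by -0.76 ± 0.25 on 5% protein, which was not called (adjusted p = 0.065), and fell by 3.59 ± 0.25 on 20%. It was called without animal 26 or animal 59, without the third run, with array weights and with the dimmest genes left out. Of the genes with a called difference, 68 had a rise called on 20% protein and no call on 5%, and 104 had a fall called on 20% and no call on 5%.

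**Figure D2:**
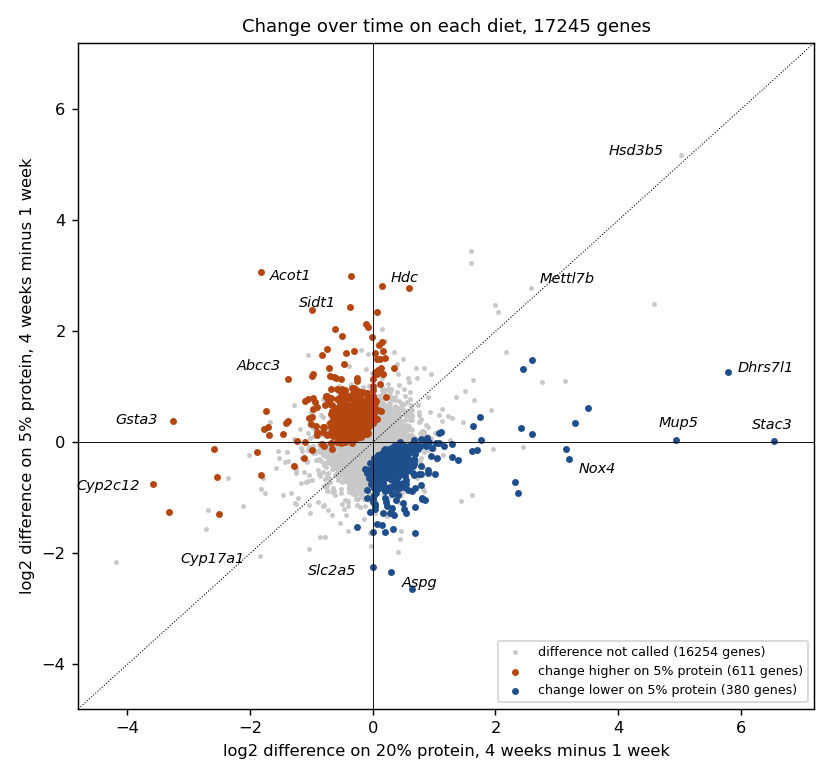
Log2 difference between 4 weeks and 1 week on 5% protein (vertical axis) against that on 20% protein (horizontal axis) for 17245 genes, with genes whose difference between the diets was called in colour; the dotted line marks equal change. Hsd3b5 and Mettl7b lie near the dotted line, Stac3 and Mup5 near 0 on the vertical axis, and Acot1 and Sidt1 near the top of the coloured points.

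Of 35 measured genes of the amino acid response, most of them ATF4 targets, 7 rose on 5% protein and none fell. That is set against 4.15% and 4.13% of all genes, and the list's median difference was 0.40 against 0.014 over all genes and -0.19 for the list on 20% protein. The 7 are Trib3, Gdf15, Atf3, Vldlr, Slc7a1, Pycr1 and Atf4 itself. The promoters of 3 of them hold the core of the amino acid response element, which ATF4 binds with a C/EBP partner, within the 250 bases before the start site, and they are printed because they show that site in genes that rose. The motif searched was TGATG, any base, then AA, on both strands, in windows that also take in 50 bases after the start. It was found in 9 of the 31 list members with a promoter in the RefSeq table (29%), in 4.16% of all 27457 promoters there, in 3.19% of the 14117 of genes tested, in 3.78% of those of genes that rose and in 1.2% of those of genes that fell. The windows below give up to 50 bases of the gene's own strand, 5′ to 3′, with the motif in capitals, in build GRCr8, Trib3 at chr3:161275534-161275575 on the minus strand, Pycr1 at chr10:106420915-106420964 on the minus strand and Slc7a1 at chr12:11664437-11664486 on the plus strand.
Trib3: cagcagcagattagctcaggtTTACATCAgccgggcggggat
Pycr1: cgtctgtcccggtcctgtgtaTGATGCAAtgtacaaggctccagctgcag
Slc7a1: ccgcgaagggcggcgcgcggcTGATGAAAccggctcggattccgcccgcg
The motif starts 21 bases before the start site in Trib3, where it lies on the other strand, 131 before it in Pycr1 and 30 before it in Slc7a1. It also stood before Fgf21, Chac1, Nupr1, Herpud1, Jdp2 and Pck2, none of which was called on 5% protein, and was not found in the windows of Atf4, Gdf15 and Vldlr. Atf3 had no promoter in the RefSeq table, so 6 of the 7 genes that rose were searched. A match is a stretch of letters, and no binding was measured. The arrays' own build is not given in the sources used here.

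Trib3, a pseudokinase that feeds back on ATF4 signalling, lay at 7.09 to 10.49 (median 9.13) at 1 week and at 9.89 to 11.24 (median 10.68) at 4 weeks. The groups overlapped, because the 1 week animals of the second run lay between 7.09 and 8.34 and those of the fourth between 9.91 and 10.49. The rise was 1.65 ± 0.41 (adjusted p = 0.0149), but without the second run it was 0.45 (adjusted p = 0.43), and without the fourth it was 2.84 (adjusted p = 3.37e-05). Gdf15, a stress hormone that curbs appetite, went from 5.60 to 7.33 (median 6.34) to 6.98 to 8.76 (median 8.38), a rise of 1.81 ± 0.32 (adjusted p = 0.00145). Only animal 26 at 4 weeks lay below the highest 1 week animal. Atf3, an ATF-family stress factor, went from 5.29 to 7.76 (median 5.76) to 6.17 to 9.25 (median 8.12), a rise of 1.89 ± 0.40 (adjusted p = 0.00539), with animal 76 high at 1 week, and without the second run it was 1.32 (adjusted p = 0.165). Vldlr, the lipoprotein receptor that ATF4 raises, went from 5.55 to 6.12 (median 5.89) to 6.17 to 7.97 (median 7.06) with no overlap, and rose by 1.16 ± 0.19 (adjusted p = 0.000782), but with the well row as a fixed block it was 0.96 (adjusted p = 0.0937). Pycr1, which makes proline, rose by 0.96 ± 0.23 from 7.25 to 8.27 (median 7.70) to 7.98 to 9.07 (median 8.72) (adjusted p = 0.0108), with an overlap that again comes from animal 26. Atf4 rose by 0.44 ± 0.11 (adjusted p = 0.0131), and Slc7a1, the cationic amino acid importer, by 1.10 ± 0.27 (adjusted p = 0.0121).

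Other well-known members did not pass the test. Asns, asparagine synthetase, differed by 0.56 ± 0.48 (adjusted p = 0.567), the hormone Fgf21 by 0.45 ± 0.54 (adjusted p = 0.699), the stress factor Ddit3 by 0.60 ± 0.20 (adjusted p = 0.0654) and the serine enzyme Psat1 by -0.18 ± 0.44 (adjusted p = 0.878). Fgf21 spread from 7.08 to 11.05 among the 1 week animals, more than any difference between the groups. Ddit3 was called without animal 26 and without animal 76. The difference between the diets was called for 8 members of the list, all higher on 5% protein, where 3.54% of all genes were. It was 1.64 ± 0.32 for Pycr1 (adjusted p = 0.00483) and 1.42 ± 0.27 for Vldlr (adjusted p = 0.00452). For Trib3, at 1.96 ± 0.58 (adjusted p = 0.0482), the call was lost in 19 of the 24 fits that leave out 1 animal, with an adjusted p of 0.0726 without animal 32. Of the list, 2 members were called higher on 5% protein without the second run, and 11 without animal 76.

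**Figure D3:**
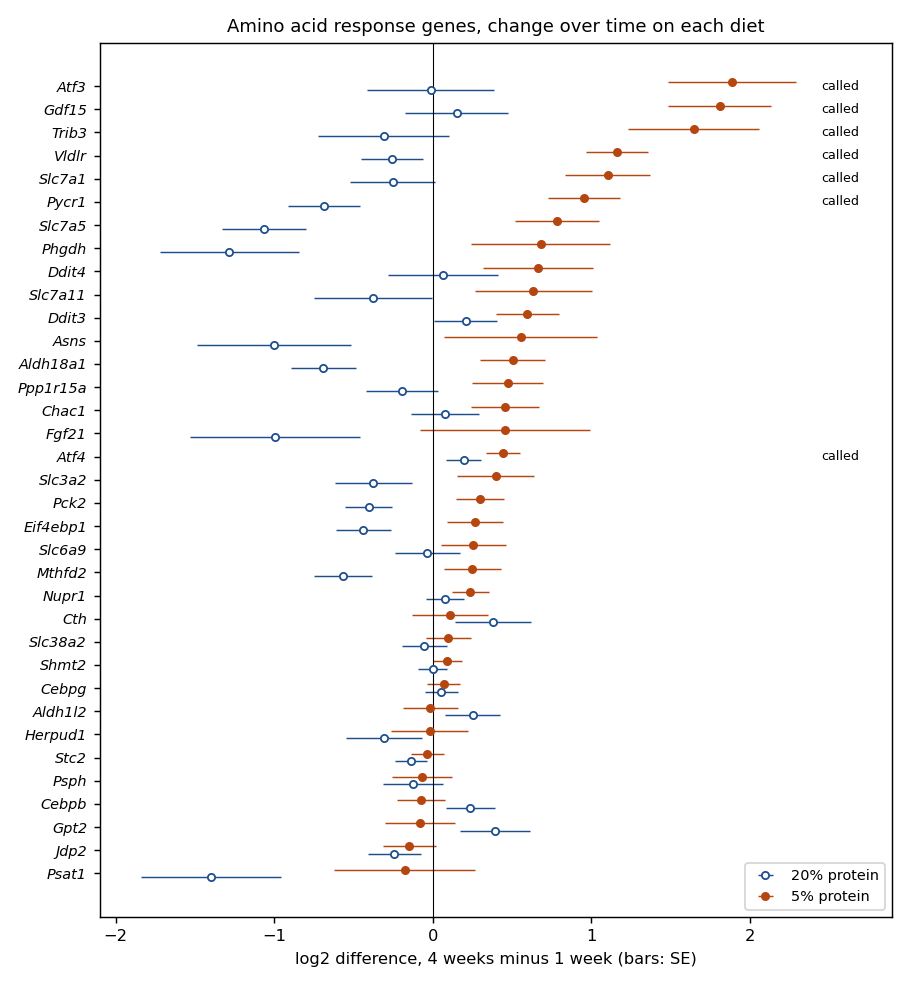
Log2 difference between 4 weeks and 1 week (horizontal axis) with its SE for the 35 measured genes of the amino acid response, on 5% protein (filled) and on 20% protein (open). The 7 genes called on 5% protein, from Atf3 at 1.89 to Atf4 at 0.44, are marked, and the list's median was 0.40 on 5% and -0.19 on 20% protein.

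A few genes of the translation machinery rose by small amounts. Of 55 cytosolic ribosomal proteins measured, 6 rose (10.9%, where 4.15% of all genes did) and none fell, with a median of 0.15, against -0.16 on 20% protein. Rplp0, of the ribosomal stalk, went from 11.94 to 12.22 (median 12.08) to 12.24 to 12.41 (median 12.34) with no overlap and rose by 0.24 ± 0.056 (adjusted p = 0.00957), and Rpl28 rose by 0.39 ± 0.097 (adjusted p = 0.0136). The difference between the diets was called for 22 of the 55, all higher on 5% protein, where 3.54% of all genes were. Of the 19 cytosolic aminoacyl-tRNA synthetases, which charge transfer RNAs, 3 rose and none fell, with a median of 0.21. All 3 are close to the threshold, and without animal 23, animal 32 or animal 50 none of the synthetases was called. For the ribosomal proteins the count fell to 3 without animal 31, animal 32 or animal 54, rose to 10 without animal 26 and to 13 without animal 22, and was 1 without the second run. It was 12 with array medians centred and 4 with quantile normalization. Among 24 genes of the unfolded protein response none rose and 1 fell (4.17%, where 4.13% of all genes did). It was the oxidase Ero1b at -0.74 ± 0.19, a call lost without animal 32 (-0.62, adjusted p = 0.0512).

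Many enzymes that break down amino acids and make urea fell. Of 46 measured, 17 fell (37%, where 4.13% of all genes did) and none rose, with a median of -0.30, against 0.18 on 20% protein. Prodh2, which degrades hydroxyproline, went from 9.69 to 10.41 (median 10.17) to 8.43 to 9.89 (median 8.75), a change of -1.08 ± 0.19 (adjusted p = 0.00137). Prodh, the proline dehydrogenase, went from 9.66 to 10.77 (median 10.23) to 7.998 to 9.70 (median 9.26), by -1.11 ± 0.24 (adjusted p = 0.00554), with animal 32 lowest. Animal 26 lay inside the 1 week range for Prodh2 and animal 22 for Prodh, and the other animals at 4 weeks lay below it. Gls2, the liver glutaminase, changed by -0.85 ± 0.21 (adjusted p = 0.0123). Slc25a13, the aspartate carrier that feeds the urea cycle, changed by -0.61 ± 0.14 (adjusted p = 0.0114), a call lost with its probe sets averaged and without the second run. With Aass at -1.64 ± 0.34, these 5 act on lysine, proline, glutamine and aspartate. Cps1, which starts the urea cycle, went from 12.45 to 12.70 (median 12.63) to 11.77 to 12.48 (median 12.33), a change of -0.34 ± 0.098 (adjusted p = 0.0323), and lost its call without any 1 of animals 23, 31, 50, 54 or 74, and Arg1, which ends it, changed by -0.84 ± 0.26 (adjusted p = 0.0446), a call lost without animal 32 (-0.81, adjusted p = 0.096) and without 7 others, 23, 31, 49, 50, 54, 59 and 74. The difference between the diets was called for 15 of the 46, all lower on 5% protein, where 2.2% of all genes were. Fewer calls were made without animal 32 (7), animal 50 (8), animal 23 (9), animal 54 (10) or animal 49 (11), and without the second run (6).

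Several genes of sugar use and a pair of fat synthesis fell. Of 19 genes of gluconeogenesis and glycolysis, 5 fell (26.3%, where 4.13% of all genes did) and none rose. Slc37a4, the transporter that feeds glucose 6-phosphatase, went from 11.49 to 11.86 (median 11.61) to 10.13 to 11.22 (median 11.01) with no overlap, a change of -0.75 ± 0.13 (adjusted p = 0.00129). Khk, which phosphorylates fructose, went from 11.04 to 11.48 (median 11.15) to 10.05 to 10.86 (median 10.46), by -0.70 ± 0.14 (adjusted p = 0.0028), and Fbp1, the gluconeogenic bisphosphatase, changed by -0.52 ± 0.099 (adjusted p = 0.00213). Khk and Slc2a5 are steps of the same fructose pathway, and both were parted in all 12 animals. Without 1 of animals 31, 32, 49, 50 or 59, 3 of the 5 calls were made. Of 20 genes of fatty acid and triglyceride synthesis, 2 fell, Thrsp and the elongase Elovl2 at -1.14 ± 0.29 (adjusted p = 0.0147). The median of the list was -0.49, but it was -1.38 within row C and 0.45 within row E. Scd, the stearoyl-CoA desaturase, lay at 12.34 to 13.34 (median 13.01) and 10.33 to 12.83 (median 12.36), a difference of -0.95 ± 0.35 (adjusted p = 0.103). None of 19 genes of cholesterol synthesis and uptake was called by limma, and with array medians centred 1 was called higher. Their median was -0.20, but it was -0.45 within row C and 1.35 within row E. An unadjusted p below 0.05 was found for 3 of them, and for 3705 of all 17245 genes.

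Many genes of lipid export and uptake fell. Of 18 genes of lipoproteins and lipid uptake, 9 fell and none rose, with a median of -0.29 against 0.13 on 20% protein. Lrp1, a receptor for lipoprotein remnants, went from 11.34 to 11.76 (median 11.54) to 10.53 to 11.45 (median 10.77), a change of -0.63 ± 0.13 (adjusted p = 0.00435). Apom, an apolipoprotein of high-density lipoprotein, changed by -0.70 ± 0.16 (adjusted p = 0.00989), Apoc1, which slows lipoprotein clearance, by -0.68 ± 0.16 (adjusted p = 0.0107) and Abca1, the cholesterol exporter, by -0.31 ± 0.079 (adjusted p = 0.0148). The difference between the diets was called for 6 of the 18, all lower on 5% protein, where 2.2% of all genes were, and for Lrp1 it was -0.91 ± 0.18 (adjusted p = 0.00629). The count was 4 without animal 32 or animal 49, 5 without animal 31, animal 50 or animal 54, and 1 without the second run. Of 16 genes of lipid droplets and lipases 1 rose (6.25%, where 4.15% of all genes did). It was the lipase Pnpla2 at 0.50 ± 0.14, whose call was lost without any 1 of animals 26, 31, 32, 49, 54 or 74. Plin2, which coats lipid droplets, differed by 0.14 ± 0.13 (adjusted p = 0.611).

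The series title names peroxisomes and mitochondria. Of 34 peroxisomal enzymes 8 fell (23.5%, where 4.13% of all genes did) and none rose between 1 and 4 weeks on 5% protein. Of 18 peroxisome biogenesis genes 1 fell (5.56%, near the 4.13% of all genes) and none rose. It was the membrane channel Pxmp2 at -0.64 ± 0.17, a call lost without animal 32 (-0.58, adjusted p = 0.0609), 54 or 59. Xdh, the purine oxidase xanthine dehydrogenase, went from 9.36 to 10.05 (median 9.46) to 8.03 to 9.07 (median 8.83) without overlap, a change of -0.87 ± 0.15 (adjusted p = 0.000842). Phyh, which starts the breakdown of phytanic acid, went from 12.13 to 12.49 (median 12.36) to 11.11 to 12.16 (median 11.58), by -0.70 ± 0.15 (adjusted p = 0.00451), with animals 22 and 26 of the 4 week group just inside the 1 week range. Hacl1, the lyase next in that pathway, changed by -1.04 ± 0.26 (adjusted p = 0.0129) and the NADH hydrolase Nudt12 by -0.42 ± 0.098 (adjusted p = 0.0107). Without animal 32 the count was 4, and without the second run it was 1. Catalase, Cat, the peroxisomal peroxidase, lay at 12.92 to 13.14 (median 13.03) and 12.88 to 13.19 (median 13.07), a difference of 0.023 ± 0.062 (adjusted p = 0.892). The import receptor Pex5 differed by -0.28 ± 0.14 (adjusted p = 0.243), the bifunctional enzyme Ehhadh by -0.08 ± 0.25 (adjusted p = 0.906) and Pex11a, which drives peroxisome division, by 0.95 ± 0.36 (adjusted p = 0.111, called without animal 23).

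PPAR alpha, the receptor that fenofibrate activates, raises fat oxidation genes, and its 27 measured targets split. There were 3 rises and 2 falls (11.1% and 7.41%, where 4.15% and 4.13% of all genes rose and fell). The median was 0.011, against -0.37 on 20% protein. For 5 the difference between the diets was called, all higher on 5% (18.5%, where 3.54% of all genes were). Acot1, a cytosolic thioesterase and a sensitive target, went from 4.08 to 7.54 (median 5.72) to 6.19 to 11.46 (median 9.16), a rise of 3.06 ± 0.68 (adjusted p = 0.00714). Its groups overlapped through animal 23, the lowest at 4 weeks. The mitochondrial Acot2 went from 9.85 to 10.67 (median 10.44) to 10.97 to 11.58 (median 11.18) with no overlap and rose by 0.81 ± 0.20 (adjusted p = 0.0142), while it fell by 0.97 ± 0.20 on 20% protein (difference 1.78 ± 0.28, adjusted p = 0.00104). Cpt1b, the muscle-type carnitine transferase, rose by 1.91 ± 0.49, a call lost without animal 32 (1.52, adjusted p = 0.053), and Cyp4a8 fell by 1.33 ± 0.39, a call lost without any 1 of 8 animals, 32 among them (-1.43, adjusted p = 0.0501). Ppara itself differed by -0.44 ± 0.21 (adjusted p = 0.231) and Cpt1a, the liver-type transferase, by -0.33 ± 0.38 (adjusted p = 0.692).

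Few mitochondrial genes were called. None of 33 genes of respiratory complex I and none of 40 of complexes II to V was called by limma on 5% protein. The unadjusted p was below 0.05 for 6 of each, where it was for 3705 of all 17245 genes. Both lists had a median of -0.11. With quantile normalization 3 genes of complex I and 1 of complexes II to V were called lower. Of 22 genes of mitochondrial fatty acid oxidation 2 fell (9.09%, where 4.13% of all genes did). They were Acadvl, the very-long-chain dehydrogenase, at -0.36 ± 0.081 (adjusted p = 0.00787) and the electron transfer protein Etfb at -0.40 ± 0.075 (adjusted p = 0.00223). Etfb went from 11.73 to 11.91 (median 11.85) to 11.23 to 11.66 (median 11.44) without overlap. Lonp1, the protease that removes damaged matrix proteins, moved the other way, from 9.56 to 10.49 (median 10.18) to 11.001 to 11.82 (median 11.25) in all animals, a rise of 1.24 ± 0.16 (adjusted p = 7.73e-05). It changed by 0.07 ± 0.16 on 20% protein, and the difference was 1.17 ± 0.22 (adjusted p = 0.00436). Of its list of 26 genes of mitochondrial biogenesis, proteases and dynamics, 2 rose (7.69%, where 4.15% of all genes did) and none fell. Tfam, which maintains mitochondrial DNA, differed by -0.034 ± 0.088 (adjusted p = 0.884), and the coactivator Ppargc1a by -0.14 ± 0.28 (adjusted p = 0.839). Of 15 genes of the tricarboxylic acid cycle 3 fell and 1 rose (20% and 6.67%, where 4.13% and 4.15% of all genes did). Pdhb of pyruvate dehydrogenase was at -0.66 ± 0.15 (adjusted p = 0.0104). Without animal 23, 31, 32, 49 or 50, 1 fell.

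Bile acid genes moved in both directions. Of 22 measured, 3 rose and 6 fell (13.6% and 27.3%, where 4.15% and 4.13% of all genes did). The exporters to the blood rose: Abcc3 went from 8.33 to 9.71 (median 9.23) to 9.90 to 10.88 (median 10.29), by 1.13 ± 0.20 (adjusted p = 0.00145), and Abcc4 from 8.55 to 9.06 (median 8.78) to 9.22 to 10.34 (median 9.85), by 0.96 ± 0.16 (adjusted p = 0.000714). Neither overlapped, and on 20% protein Abcc3 fell by 1.39 ± 0.20 (difference 2.52 ± 0.29, adjusted p = 1.84e-05). The importer Slco1a4 went from 10.53 to 11.10 (median 10.65) to 8.63 to 10.15 (median 9.72), by -1.26 ± 0.20 (adjusted p = 0.000595), and Slc27a5, which readies bile acids for conjugation, changed by -1.20 ± 0.22 (adjusted p = 0.00203). Cyp8b1, which makes cholic acid, rose by 1.51 ± 0.38 (adjusted p = 0.0154). Cyp7a1, the rate-limiting enzyme of bile acid synthesis, lay at 8.49 to 11.89 (median 11.23) and 10.02 to 11.91 (median 11.36), and the spread of both groups exceeds the difference of 0.52 ± 0.98 (adjusted p = 0.828). Without animal 32, 3 of the falls were called, and without the second run 1.

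Of 28 xenobiotic P450 and conjugation genes, 4 rose and 6 fell. Cyp3a23-3a1, which the receptor PXR induces, went from 10.11 to 10.88 (median 10.53) to 7.71 to 9.96 (median 8.98) and differed between the diets by -1.61 ± 0.37 (adjusted p = 0.0138). Nr1i2, the gene of PXR, fell by 0.56 ± 0.16 (adjusted p = 0.0265), and the call was lost without any 1 of animals 23, 32, 54, 59 or 74. Cyp2b1 and Cyp2a1 fell on both diets, Cyp2b1 with a change of -2.72 ± 0.38 on 20% protein. Sult1b1, a sulfotransferase, rose by 0.75 ± 0.15 (adjusted p = 0.0028). Of 34 glutathione and NRF2 target genes 6 rose and 3 fell. Akr7a3, an aldehyde reductase, went from 9.75 to 10.36 (median 9.99) to 10.36 to 12.64 (median 11.83), by 1.61 ± 0.29 (adjusted p = 0.00137), with a difference between the diets of 2.05 ± 0.41 (adjusted p = 0.00535). The transferases of the mu class parted, with Gstm4 at 0.88 ± 0.16 (adjusted p = 0.00203) and Gstm1 at 0.42 ± 0.073 (adjusted p = 0.00124) against Gstm7 at -1.01 ± 0.24 (adjusted p = 0.0108). With the well row as a fixed block Gstm4 was at 0.70 (adjusted p = 0.0678) and Gstm1 at 0.33 (adjusted p = 0.118). These transferases, like the P450s named, have close paralogs whose probes can cross-hybridize. Of the 3 falls, 1 was called without animal 23, 49, 50 or 54.

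Among 25 genes with a sex bias set by growth hormone, 3 rose and 4 fell on 5% protein, with a median of 0.040. Male-type and female-type genes were not counted apart in this list. On 20% protein 9 rose and 2 fell, with a median of 0.55, and the difference between the diets was called lower on 5% protein for 6 (2.2% of all genes) and higher for 1 (3.54%). The 3 that rose on 5% were Hsd3b5, Cyp2c13 and Cyp2a2, and without animal 32 or animal 54 the falls numbered 2. Cyp2c11, the main male P450, lay at 6.99 to 10.78 (median 7.62) at 1 week and 5.04 to 8.07 (median 7.58) at 4 weeks, a difference of -0.95 ± 0.74 (adjusted p = 0.507). On 20% protein at 1 week, animal 53 lay at 7.04 for Cyp2c11, against 11.92 to 12.31 in the other animals. For Cyp2c13 it lay at 6.61 against 11.97 to 12.88. Spink1, a protease inhibitor, went from 3.83 to 6.50 (median 5.19) to 2.62 to 4.64 (median 3.59), by -1.62 ± 0.38 (adjusted p = 0.0107). Car3, a carbonic anhydrase of male liver, fell by 1.98 ± 0.53, and the call was lost without animal 32 (-1.53, adjusted p = 0.0645), 49, 54 or 59. Of 24 genes of the growth hormone and IGF axis 2 rose and 1 fell, 8.33% and 4.17%, where 4.15% and 4.13% of all genes did. Ghr, the growth hormone receptor, went from 10.72 to 11.23 (median 11.07) to 11.36 to 11.77 (median 11.61) without overlap, by 0.56 ± 0.097 (adjusted p = 0.00115), close to the 0.52 ± 0.097 on 20% protein (difference 0.042 ± 0.14, adjusted p = 0.906). Igf2r, which clears IGF2, rose by 0.74 ± 0.11 (adjusted p = 0.000266) and differed between the diets by 1.00 ± 0.15 (adjusted p = 0.000558). Igf1 lay at 11.95 to 12.31 (median 12.13) and 11.88 to 12.30 (median 12.11), a difference of -0.04 ± 0.075 (adjusted p = 0.828), and Igfbp1, which binds it, differed by 0.34 ± 0.64 (adjusted p = 0.828). Igfbp2, an IGF-binding protein high in fetal liver, fell by 1.15 ± 0.30 on 5% protein (adjusted p = 0.0195) and by 2.11 ± 0.30 on 20%. Of 21 fetal and early postnatal liver genes 2 fell, Igf2bp3 at -0.51 ± 0.099 (adjusted p = 0.0025) and the imprinted RNA H19 at -2.16 ± 0.67, the latter lost without animal 32 (-2.02, adjusted p = 0.11) and 8 others. Afp, alpha-fetoprotein, differed by -0.91 ± 0.54 (adjusted p = 0.357).

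A few growth arrest genes rose, while cell division genes were not called. Of 19 growth arrest and p53 response genes, 3 rose and 1 fell, with a median of 0.23. Unc5b, a netrin receptor and p53 target, went from 6.42 to 9.75 (median 8.28) to 9.72 to 10.64 (median 10.42), by 2.14 ± 0.41 (adjusted p = 0.00261), and at 4 weeks only animal 26 lay below the highest at 1 week. As with Trib3, the 1 week animals of the second run were the low ones, at 6.42 to 7.30 against 9.27 to 9.75 in the fourth, and without the second run it rose by 0.84 (adjusted p = 0.0197), against 3.43 without the fourth (adjusted p = 1.58e-08). The transcription factor Klf6 rose by 0.81 ± 0.20 (adjusted p = 0.0148) and the cyclin kinase inhibitor Cdkn2b by 0.57 ± 0.14 (adjusted p = 0.0122). Another inhibitor, Cdkn2c, changed by -0.51 ± 0.13 (adjusted p = 0.0166). None of 39 genes of cell division and DNA replication was called by limma. Of them 1 had an unadjusted p below 0.05, as did 3705 of all 17245 genes. Their median was 0.070, against -0.34 on 20% protein, with no difference between the diets called. With array medians centred or quantile normalization 1 was called higher. Mki67, a marker of dividing cells, lay at 6.10 to 7.55 (median 6.78) and 6.33 to 7.16 (median 6.78). Of the 16 clock genes, Csnk1e, a clock kinase, rose by 0.38 ± 0.078 (adjusted p = 0.00386) and fell by 0.39 ± 0.078 on 20% protein, and Hlf fell.

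Secreted proteins of the hepatocyte fell where they changed. Of 34 plasma and acute phase proteins 5 fell (14.7%) and none rose, and of 31 of coagulation and complement 7 fell (22.6%) and none rose. Of all genes 4.13% fell. The medians of the 2 lists were -0.15 and -0.26. C6, of the complement attack complex, went from 9.87 to 10.40 (median 10.09) to 8.69 to 9.38 (median 8.95) with no overlap, a change of -1.10 ± 0.15 (adjusted p = 0.00012), and differed between the diets by -1.60 ± 0.21 (adjusted p = 0.000105). F10, clotting factor X, changed by -0.48 ± 0.096 (adjusted p = 0.00352) and Serpinf2, the plasmin inhibitor, by -0.40 ± 0.093 (adjusted p = 0.00972). Orm1, the acute phase orosomucoid, went from 8.55 to 10.36 (median 10.03) to 7.30 to 9.38 (median 7.84), by -1.64 ± 0.35 (adjusted p = 0.00541), and without the second run its change was -1.18 (adjusted p = 0.121). Itih1, a hyaluronan-binding inhibitor subunit, changed by -0.50 ± 0.088 (adjusted p = 0.00134). Albumin, Alb, lay at 13.59 to 13.80 (median 13.71) and 13.50 to 13.75 (median 13.69), a difference of -0.061 ± 0.056 (adjusted p = 0.587), near the top of the array's range. The count for coagulation and complement was 11 with quantile normalization, 13 without animal 22, 4 without animal 31, 3 without animal 32 and 1 without the second run. For plasma proteins it was 9 without animal 22, 3 without animal 23, 31, 32, 50 or 54 and 0 without the second run.

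Some genes of the matrix, of interferon response and of macrophages fell as well. Of 32 collagens and matrix genes 10 fell (31.2%, where 4.13% of all genes did) and none rose. The median was -0.30 against 0.024 on 20% protein. The difference between the diets was called for 3, all lower on 5% protein (9.38%, where 2.2% of all genes were). Nid1, of the basement membrane, went from 8.88 to 9.31 (median 9.06) to 8.22 to 8.56 (median 8.40), by -0.70 ± 0.10 (adjusted p = 0.000341), and fell on 20% protein too, by 0.50 ± 0.10. Lama2, a laminin chain, changed by -0.60 ± 0.091 (adjusted p = 0.00039), Sparc, a collagen-binding matrix protein, by -0.75 ± 0.13 (adjusted p = 0.000856) and Loxl2, which cross-links collagen, by -0.71 ± 0.13 (adjusted p = 0.00145). In none of these 4 did the groups overlap, and the difference between the diets for Sparc was -0.72 ± 0.18 (adjusted p = 0.0216). Over single animals left out, the count of falls was 8 or more, and it was 5 without the second run. Of 35 interferon response genes 8 fell and 1 rose. Stat2, which carries the interferon signal, went from 9.29 to 9.85 (median 9.57) to 8.56 to 9.36 (median 9.06), by -0.57 ± 0.13 (adjusted p = 0.00937), and the antiviral genes Bst2 and Ifi44 changed by -0.69 ± 0.18 (adjusted p = 0.0162) and -0.65 ± 0.16 (adjusted p = 0.0159). The falls numbered 3 without animal 23, 32, 54 or 76, 4 without animal 31 or the second run, and 1 without the fourth run.

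Macrophage and Kupffer cell markers gave the lowest median of any list with 10 or more measured members, -0.60, against -0.14 on 20% protein, with 7 of 12 falling and none rising. The difference between the diets was called for 1 of the 12, C1qa at -0.69 ± 0.18, and this call was lost without any 1 of animals 31, 32, 52, 72 or 73. C1qa, a complement subunit made by macrophages, went from 9.64 to 9.996 (median 9.81) to 8.97 to 9.39 (median 9.14) with no overlap, a change of -0.66 ± 0.13 (adjusted p = 0.00265). Csf1r, the receptor that keeps macrophages alive, went from 9.46 to 10.50 (median 9.86) to 8.81 to 9.29 (median 9.16), by -0.80 ± 0.18 (adjusted p = 0.00818), Adgre1, a surface antigen of macrophages, changed by -0.77 ± 0.18 (adjusted p = 0.0099) and Clec4f, a lectin of Kupffer cells, by -0.66 ± 0.14 (adjusted p = 0.00672). The summed intensity of the 12 markers ran from 6459.6 to 9592 at 1 week, with a median of 8112, and from 4875 to 5833 at 4 weeks, with a median of 5467, without overlap. In RNA of whole liver, fewer cells of a type and less RNA per cell cannot be told apart. The 1 week animals of the fourth run were the higher ones for Csf1r and Clec4f, which without that run differed by -0.43 (adjusted p = 0.148) and -0.36 (adjusted p = 0.141). Without that run 1 marker, C1qa, was called, against 8 without the second run and 5 without animal 31. Endothelial markers fell in 3 of 10, with Cdh5, the cadherin of vessel walls, going from 8.34 to 8.62 (median 8.40) to 7.78 to 8.14 (median 7.98), by -0.49 ± 0.071 (adjusted p = 0.000332), and their summed intensity ran from 4672 to 5573 at 1 week and from 4033 to 4682 at 4 weeks. Without animal 32, 1 endothelial marker was called. Erythroid markers fell in 1 of 11, the globin Hbb at -1.30 ± 0.41, a call lost without any 1 of 8 animals (22, 31, 32, 54, 59, 74, 75 or 76), with sums from 1555 to 6649 at 1 week and from 790.1 to 5186 at 4 weeks. None of 12 stellate cell markers was called by limma (4 at an unadjusted p below 0.05, beside 3705 of all 17245 genes). Their sums ran from 3890 to 5208 and from 3267 to 4356. The part of these cell types in the matrix, interferon and complement values was not tested.

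**Figure D4:**
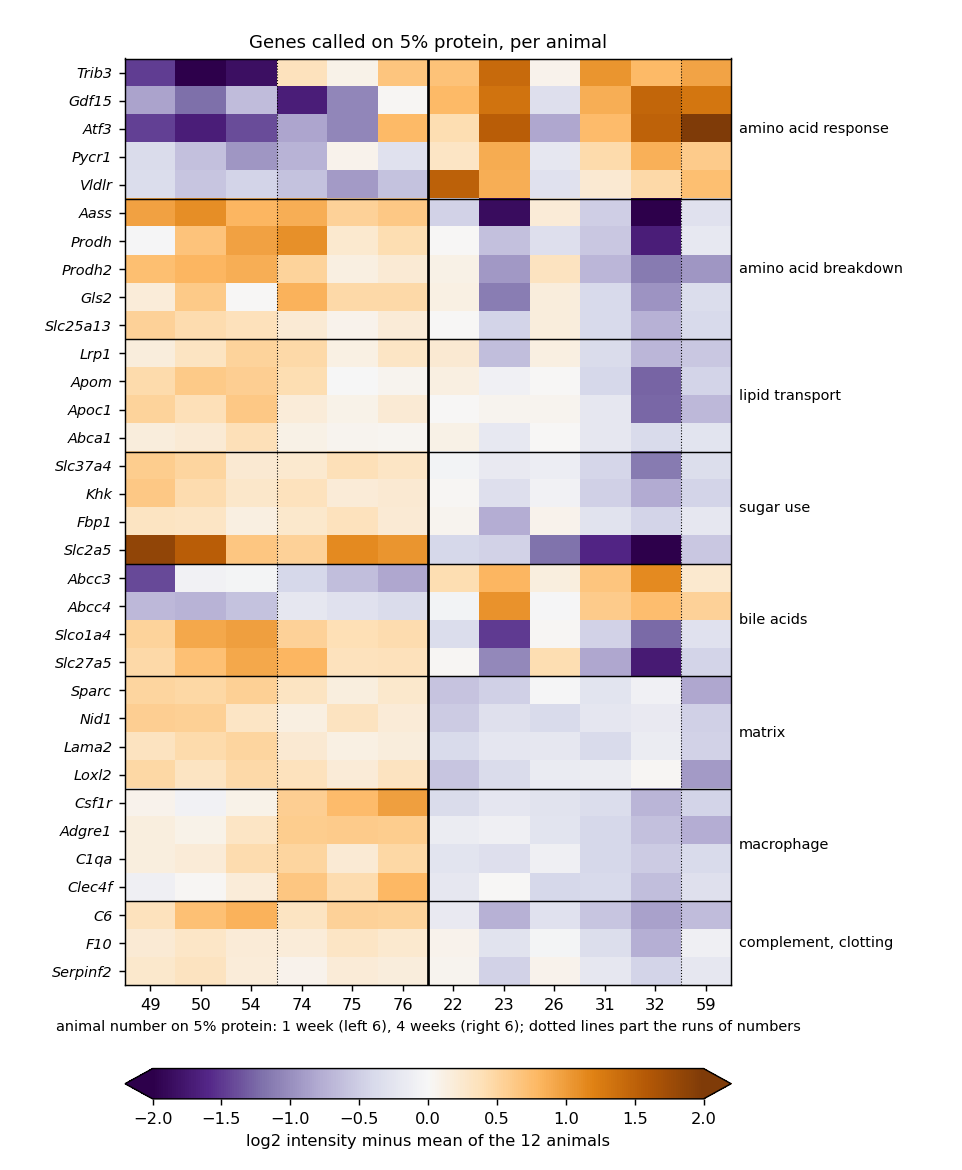
Log2 intensity minus the mean over the 12 animals on 5% protein (colour) for 33 called genes (rows) in each animal (columns), 1 week on the left and 4 weeks on the right. Animal 32 shows the deepest falls for Aass and Slc2a5, animal 26 lies closest to the 1 week animals, and Trib3 separates the 1 week animals of the second run (49, 50 and 54) from those of the fourth (74, 75 and 76).

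The markers of the tissue itself were high at both times. Of 8 hepatocyte markers 1 fell, Cps1, and their summed intensity ran from 61999 to 68809.6 at 1 week and from 56084 to 68631 at 4 weeks. Of 13 periportal markers 3 fell, Gls2, Arg1 and Cps1, and of 11 pericentral markers 2 rose, Gstm1 and Rhbg. Called or not, most markers of both lists lay lower at 4 weeks. These were 10 of the 13 periportal (median -0.25) and 7 of the 11 pericentral markers (median -0.10). Rhbg, an ammonia transporter of the pericentral liver, went from 7.73 to 8.17 (median 7.87) to 8.47 to 9.72 (median 9.30) without overlap, a rise of 1.24 ± 0.21 (adjusted p = 0.000785), and fell by 0.98 ± 0.21 on 20% protein (difference 2.22 ± 0.29, adjusted p = 0.000114). Without animal 23, 31, 50, 54 or 74, 1 periportal marker was called. Of 14 T and natural killer cell markers 1 fell, the granzyme Gzma at -0.80 ± 0.17 (adjusted p = 0.00631). None of the markers of cholangiocytes (8 measured), B and plasma cells (7), neutrophils (10), adipocytes (8), pancreatic acinar cells (11) or mesothelial cells (6) was called by limma. At an unadjusted p below 0.05 these were 5, 0, 2, 0, 1 and 1 markers, beside 3705 of all 17245 genes. With array medians centred or quantile normalization 1 cholangiocyte marker was called higher. Of 35 nuclear receptors and liver transcription factors 4 fell, and of 13 genes of thyroid hormone handling 4 fell, and each of these calls except that of Thrsp was lost on leaving out animal 32 or another single animal, with Dio1, the deiodinase, at -0.50 (adjusted p = 0.0575) without animal 32. Of 31 proteasome genes 1 rose (3.23%, where 4.15% of all genes did). Of 34 genes of autophagy and lysosome 1 fell (2.94%, where 4.13% of all genes did). Both calls were lost without animal 32.

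**Figure D5:**
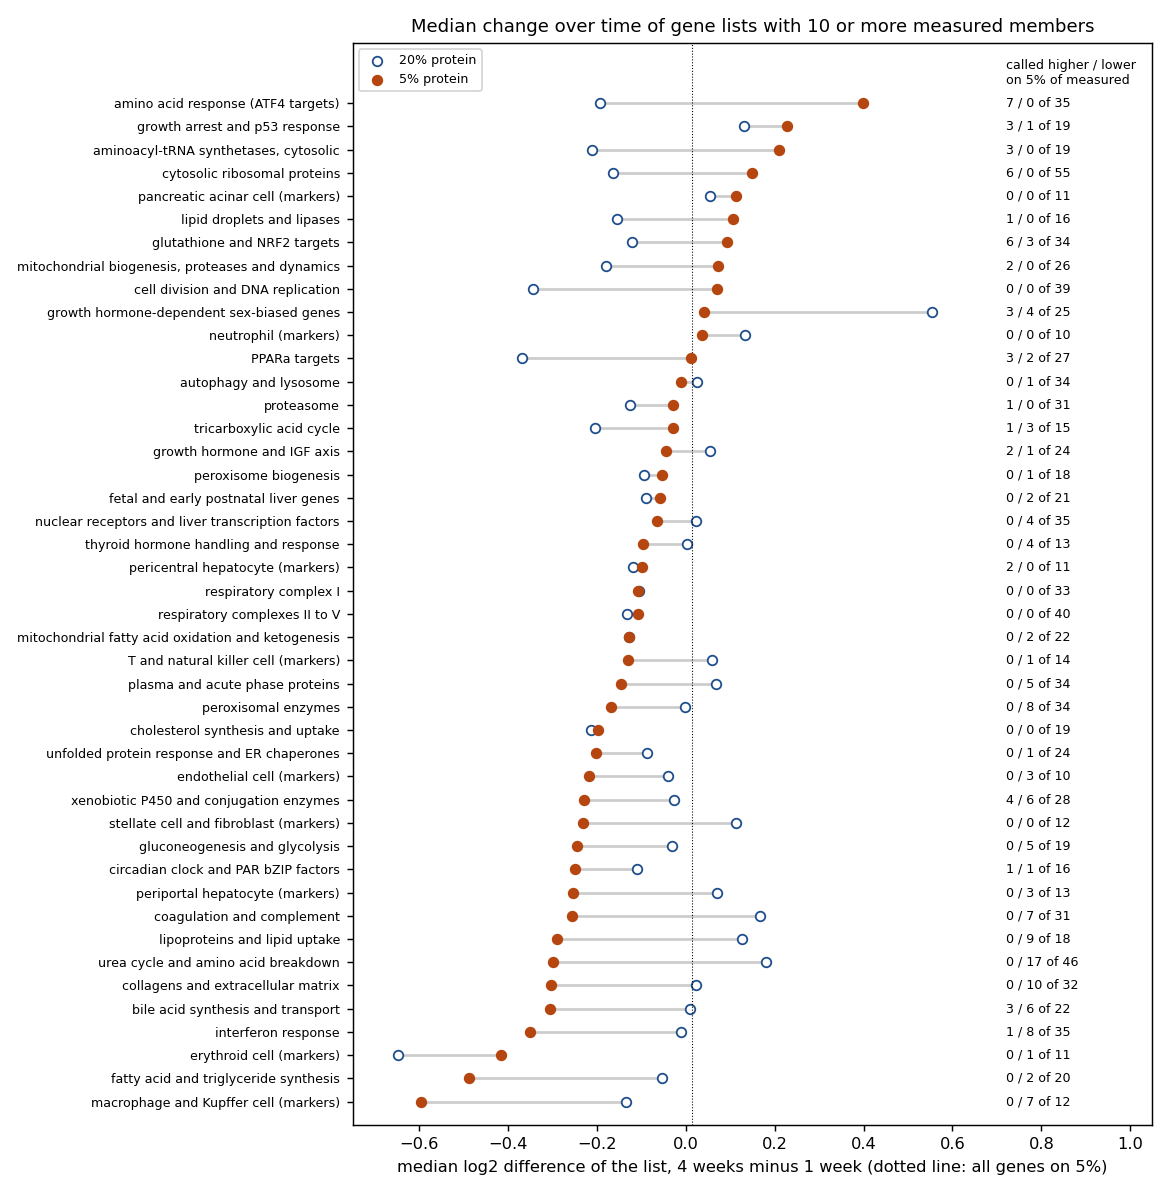
Median log2 difference between 4 weeks and 1 week (horizontal axis) of the lists with 10 or more measured members (rows), on 5% protein (filled) and 20% protein (open), with the number of members called higher and lower on 5% beside each. The amino acid response has the highest median on 5% protein (0.40) and the macrophage and Kupffer cell markers the lowest (-0.60), and the median of all 17245 genes was 0.014.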

How the data were processed

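Each rat gave 1 array of liver RNA, in 4 groups of 6 (5% or 20% protein for 1 or 4 weeks, per the labels' titles). The deposited values are intensity per probe set after RMA (which subtracts background, equalizes the arrays' distributions and combines a set's probes) on the unlogged scale, per the labels, made by the authors; the submitters' processing notes name RMA, and its version and the genome build are not given in the sources used here. RMA values carry no background measure, and for arrays their number limits the precision. Nothing says more of how the animals were kept or handled, so the spread is that between these animals.

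The log2 of the intensity was taken. The 18644 probe sets annotated to a single symbol were used, out of 29214 (962 carried several symbols, 9608 carried none), keeping for 879 genes with several probe sets the one with the highest mean, which left 17245 genes. The 4 group means were fitted together with limma 3.58.1 (lmFit and eBayes) in R 4.3.3, on 20 residual degrees of freedom, to which eBayes added 3.95. All adjusted p-values are two-sided limma p-values with Benjamini-Hochberg adjustment over the 17245 genes. The fit was tested on simulated data. Columns of other samples numbered 0.

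The genes named were the 15 largest called rises and falls without overlap, up to 4 called members per direction of each list, the 6 largest differences between the diets in each direction, and a fixed set; Slc7a1 was added after its value was seen, because it completes the 7 called genes of its list. Of these, the genes described are those whose values the text turns on. Of 1268 entries in 35 gene lists and 14 marker lists, 1100 were measured. The members and lists were chosen with earlier results of these data known, and lists are described by counts and medians with no test. Some genes of the fixed set are not reported here.

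Alternatives covered scaling, offset, choice and filter of probe sets, eBayes options, array weights, the samples in the fit, wells, runs of animal numbers and each animal left out.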

Additional observations from a re-analysis of the deposited data

Results flagged for a closer look

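Among the 136 genes described here out of the 171 that the naming rule picked, 12 of 272 groups of 6 on 5% protein held an animal whose gap to the next, as a share of the group's whole range, passed Dixon's critical value for groups of this size, and chance gives about 1 in 20. At 4 weeks, animal 32 was lowest for Thrsp (0.717, at 7.29 against 10.53 in the next animal), Slc37a4 (0.649) and Prodh (0.635), and animal 23 was lowest for Ppargc1a (0.811) and Slc39a5 (0.640). At 1 week, animal 54 was highest for Xdh (0.767) and lowest for Rpl28 (0.727), and animal 49 was highest for Nox4 (0.683) and lowest for Acot2 (0.638). Animal 50 was highest for Cyp2c12 (0.655) and Cdkn2c (0.627), and animal 76 for Atf3 (0.655).

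The change over time differed between the diets by limma's test of the difference for 66 of these genes. In 30 it was higher on 5% protein. The difference in log2 was 4.88 for Acot1, 3.64 for Gsta3, 2.84 for Cyp2c12, 2.82 for Sidt1, 2.67 for Hdc, 2.66 for Gucy2c, 2.52 for Abcc3, 2.42 for Cpt1b, 2.24 for Unc5b, 2.22 for Rhbg, 2.18 for Nrg1 and 2.15 for Kcnt2. It was smaller for Akr7a3 (2.05), Trib3 (1.96), Atf3 (1.90), Acot2 (1.78), Gdf15 (1.66), Pycr1 (1.64), Abcc4 (1.46), Vldlr (1.42), Eda2r (1.33), Slc39a5 (1.21), Lonp1 (1.17), Igf2r (1.00), Pnpla2 (0.97), Csnk1e (0.77), Sult1b1 (0.75), Rpl28 (0.52), Rplp0 (0.40) and Gstm1 (0.35). In 36 genes it was lower on 5% protein. The difference was -6.52 for Stac3, -4.91 for Mup5, -4.52 for Dhrs7l1, -3.50 for Nox4, -2.63 for Aspg, -2.34 for Orm1, -2.25 for Slc2a5, -1.82 for Notum, -1.82 for Spink1, -1.64 for Gfra1, -1.61 for Cyp3a23-3a1 and -1.60 for C6. It was smaller in size for Bco2 (-1.54), Slco1a4 (-1.44), Hlf (-1.26), Slc27a5 (-1.24), Gstm7 (-1.20), Prodh (-1.15), Gls2 (-1.12), Prodh2 (-1.08), Xdh (-1.07), Lrp1 (-0.91), Pxmp2 (-0.91), Apoc1 (-0.85), Slc25a13 (-0.82), Khk (-0.81), Slc37a4 (-0.78), Stat2 (-0.72), Sparc (-0.72), C1qa (-0.69), Itih1 (-0.68), Igf2bp3 (-0.55), Serpinf2 (-0.49), Fbp1 (-0.48), Abca1 (-0.43) and Cdh5 (-0.36).

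Some of these calls rest on single animals. On leaving out 1 of the 24 animals at a time, the call was lost most often for Trib3 (19), Gstm1 (19), Spink1 (18), Atf3 (17), Hlf (17), Fbp1 (16), Prodh (14), Cpt1b (13), Gdf15 (13) and Gstm7 (12) times. It was lost without animal 32 for each of these.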

How the results depend on the processing

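The counts of genes called on 5% protein stayed within 1.5 times of 716 and 713 under quantile normalization, array medians centred, 16 added to the intensity, probe sets averaged per gene, all probe sets tested singly, the dimmest genes dropped, a trended and robust eBayes, array weights, a fit of only the 2 groups compared, the well column as a covariate, the well row as a random or a fixed block, the run of animal numbers as a random block, and without the third or the fourth run. No result changed its direction while called. With the row as a fixed block, the estimated change on 5% protein came only from rows B, C and E, not from all 12 animals. Without the second run 248 rose and 279 fell. With 1 animal left out, 403 to 901 genes rose and 386 to 754 fell, the lowest without animal 32 and the highest without animal 26. On 20% protein the 435 calls in both directions became 678 with array weights, 202 with the well row as a random block, 756 without the second run, 924 without the fourth and 45 without the third. With 1 animal left out they ran from 264 to 549, and were 264, 288 and 275 without animal 67, 72 or 73. The differences between the diets, 611 higher and 380 lower, became 952 and 588 with array weights, 152 and 82 without the second run, 1347 and 765 without the fourth and 23 and 19 without the third. With 1 animal left out they ran from 360 to 890 and from 219 to 519. The cause of these shifts was not tested. The share of rises among the calls on 5% protein was 50.1%, 48.4% with quantile normalization and 60.6% with medians centred, on 20% protein 40.5%, 46.8% and 66.2%, and among the differences 61.7%, 52.5% and 50.9%.

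Of the 171 genes picked by the naming rule, of which the text describes 136, 142 were called on 5% protein. Of these, 142 were called with quantile normalization, 137 with medians centred, 129 with the run as a random block, 111 with only the groups compared, 108 with the row as a fixed block, 68 without the second run, 108 without the fourth and 109 without animal 32. Over the 12 animals left out in turn, 38 of these lost the call at least 1 time, as did 26 of the 84 with a called difference between the diets over 24 animals. The consensus correlation within rows was 0.146 and within runs 0.0303. The row as a fixed block gave no value for 20% protein or for the difference, since rows of the 20% animals at 1 week hold no other group, and the fit of only the groups compared gives none for the difference, which needs all 4. Without the third run, 2 animals remain on 20% protein at 4 weeks. No paired analysis was possible because each animal number belongs to a single group.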
